A study of Homo sapiens with 11 samples.

Results

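SEC23A and the 8 other coat genes measured with it were followed across 11 arrays of PC-3 cells that received small RNA duplexes. The members were all probes whose gene name in the scanner files is SEC23A, SEC23B, SEC24A, SEC24B, SEC24C, SEC24D, SEC31A, SAR1A or SAR1B, or an older alias of one of them. They came to 9 genes with 16 probes, of 30484 gene names with 41000 probes on the array, and 15 of the 16 passed the filter on dim probes. SEC23A was chosen by its fall with these duplexes against mock on these arrays, so its own change is a description here and carries no test. The other 8 genes belong to the same coat.

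PC-3 is an established human prostate cancer cell line. Cells were given the transfection reagent alone (mock), dsEcad640, or a duplex of miR-372, miR-302a, miR-520c, miR-373 or miR-520f, and RNA was taken 24 h later. dsEcad640 is a small interfering RNA that was designed against the promoter of E-cadherin and, as the study describes it, carries the seed of these miRNAs in its antisense strand. Every array took 150 ng of a mix of RNA from 4 transfections, in 1 colour, and the dose for the arrays is not given in the sources used here. Samples 1 to 4 (in this order mock, dsEcad640, miR-302a, miR-372) share the slide of set 1. The slide of set 2 carries mock sample 8 with samples 6 (miR-520f) and 7 (miR-373). Mock samples 9 and 11, miR-372 sample 10 and miR-520c sample 12 lie on the slide of set 3. The title of sample 6 reads miR-530f, while its other labels read miR-520f, the name used here. dsEcad640 and the miRNAs other than miR-520f, with 6 arrays in all, are called the common-seed duplexes. Nothing states that the mock arrays came from separate cultures, so p-values measure only the spread between these arrays.

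COPII is the protein coat that buds transport vesicles from the endoplasmic reticulum. The small GTPase SAR1 (SAR1A or SAR1B) binds GTP and inserts into the membrane, then recruits the inner coat, a pair of SEC23 and SEC24. SEC23 (SEC23A or SEC23B) activates GTP hydrolysis by SAR1, and SEC24 (SEC24A to SEC24D) holds the sites that bind cargo. SEC31A, with SEC13, forms the outer cage around them. Secretory cells depend on the coat for the export of large cargo such as collagen, and variants of SEC23A, SEC23B and SAR1B cause human disorders of secretion. A microRNA recognises its target messages mainly by its seed, the bases near its 5′ end that pair with a site in the message.

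The guide sequences are shown because the duplexes are compared by their seeds. They are the mature 3p strands of RefSeq (GRCh38.p14), written 5′ to 3′ with bases 2 to 8, the seed, in capitals.
hsa-miR-302a-3p: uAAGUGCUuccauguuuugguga
hsa-miR-372-3p: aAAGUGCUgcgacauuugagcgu
hsa-miR-373-3p: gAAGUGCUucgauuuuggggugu
hsa-miR-520c-3p: aAAGUGCUuccuuuuagagggu
hsa-miR-520f-3p: aAGUGCUUccuuuuagaggguu
The first 4 share the seed AAGUGCU, and a message pairs with it through AGCACUU. In miR-520f the same 7 bases stand at positions 1 to 7, so its bases 2 to 8 read AGUGCUU and pair with AAGCACU. The 8 bases AAGCACUU hold both sites. The sequence of dsEcad640 is not printed here, and messages were not searched for sites.

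The arrays correlated with the others by a median r of 0.959 to 0.982. Between 54.4% and 72.9% of the probes were well above background on 10 arrays, and 88.1% were on miR-372 sample 4. The number of arrays limits the precision. KRT8, KRT18, KRT19 and EPCAM, markers of epithelium, were well above background on all 11 arrays, and the leukocyte marker PTPRC cleared it on 1 array with each of its probes. PECAM1, a marker of endothelium, had a dim signal well above background on all 11 arrays. The 3 probes of KLK3, a protease secreted by prostate epithelium, cleared background on 4, 11 and 1 of the arrays, so they disagree.

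SEC23A was lower on every common-seed array than on every mock array. A level here is the log2 processed signal of a probe less the 75th percentile of its array, so that levels of different probes are not compared. The first SEC23A probe, A_23_P140170, lies at chr14:38571420-38571479 on the minus strand of hg18. Its level was 2.27, 2.43, 2.55 and 2.54 on mock samples 1, 8, 9 and 11. On set 1 it was 0.75 with dsEcad640, 0.96 with miR-302a and 0.73 with miR-372. It was 1.13 with miR-373 on set 2, and 1.17 with miR-372 and 1.00 with miR-520c on set 3. The 6 common-seed arrays thus lay between 0.73 and 1.17, all below the lowest mock array. The miR-520f array, at 1.97, lay between these groups.

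The second SEC23A probe, A_23_P348894, at chr14:38572187-38572246 of the same strand, separated the arrays in the same way. Its level was -1.09, -1.08, -0.68 and -1.11 on mock samples 1, 8, 9 and 11. It was -2.75 with dsEcad640, -2.78 with miR-302a, -2.64 and -2.33 with miR-372 samples 4 and 10, -2.34 with miR-373 and -2.92 with miR-520c. It was -1.53 with miR-520f, again between the mock and the common-seed arrays. Both probes were well above background on all 11 arrays and not saturated.

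**Figure D1:**
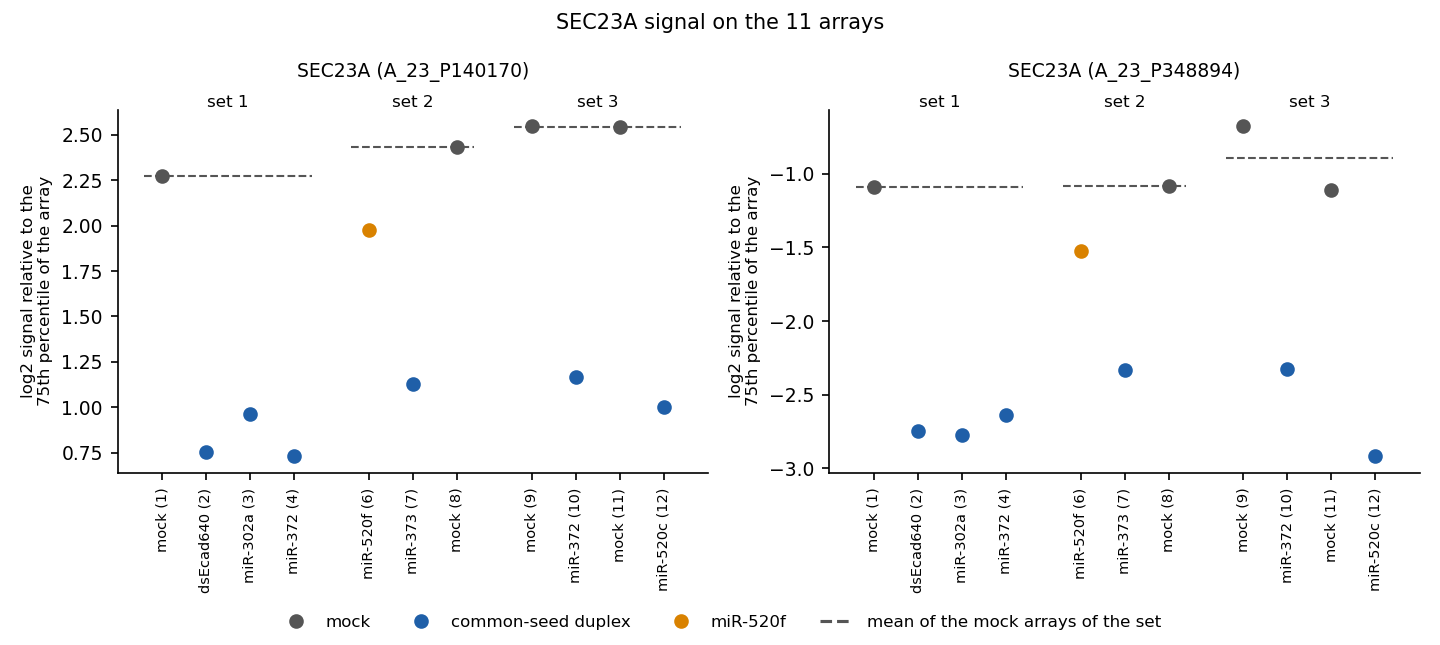
SEC23A on the 11 arrays, as the log2 signal less the 75th percentile of its array (vertical axis) for each array by set and sample number (horizontal axis), 1 panel per probe and 1 point per array, with mock in grey, common-seed duplexes in blue, miR-520f in orange and the mock mean of a set as a dashed line. The common-seed arrays span 0.73 to 1.17 for the first probe and -2.92 to -2.33 for the second, below every mock array, and miR-520f stands at 1.97 and -1.53.

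Against the mock arrays of its own set, the first SEC23A probe changed by -1.43 ± 0.12 on the log2 scale (SD, n = 6 arrays), and the second by -1.61 ± 0.26 (SD, n = 6). The fit with the set as a block gave a difference of -1.43 (SE 0.08, 95% confidence interval -1.62 to -1.23) for the first probe, a 2.69-fold lower signal. For the second probe it gave -1.59 (SE 0.15, -1.95 to -1.24), a 3.02-fold lower signal. Ordered by this difference, they ranked 47 and 29 from the lowest of the 26919 probes that entered the fit. SEC23A was chosen by this fall, so its intervals and ranks are a description and test nothing. The mean of both probes, -1.51 in this fit, was -1.29 after normexp background correction and -1.28 within set 2, where 1 common-seed array and 1 mock array were compared.

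Among the duplexes, SEC23A was lowest against its mock arrays with miR-520c, at -1.79 as the mean of both probes. dsEcad640 followed at -1.59, miR-302a at -1.50, miR-372 at -1.48 as the mean of 2 arrays, and miR-373 at -1.28. The steps between these neighbours were 0.19, 0.09, 0.02 and 0.20. The 2 miR-372 arrays differed from each other by 0.14, and the mock arrays of set 3 by 0.22. That mock difference was 0.003 on the first probe and 0.43 on the second. No step between common-seed neighbours exceeded the mock difference of 0.22, while the steps of 0.19 and 0.20 exceeded that of the miR-372 arrays. Each yardstick is 1 pair of arrays, so neighbours were not told apart by this measure. On 1 slide, dsEcad640, the designed duplex, differed from miR-302a by -0.21 for the first probe and 0.03 for the second, and miR-520c differed from miR-372 sample 10 by -0.17 and -0.59.

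miR-520f stood apart from them by 0.83, with a change of -0.45. On its slide the SEC23A level was 0.46 and 0.44 below mock sample 8 and 0.85 and 0.81 above miR-373 for the first and second probe. Fitted with the set as a block, miR-520f differed from mock by -0.52 (SE 0.16) and -0.61 (SE 0.29). Its difference from the common-seed duplexes was 0.91 (95% confidence interval 0.54 to 1.28) and 0.98 (0.30 to 1.66). miR-520f has 1 array, which the fit assumes to vary like the others. These values use the mock and common-seed arrays by which SEC23A was chosen, so the choice itself can widen the gap between miR-520f and the common-seed duplexes. The intervals are given as a description, without a test.

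SEC23B, the paralog that can take the place of SEC23A in the inner coat, did not pass the test. Its probes A_23_P6119 and A_24_P690924 lie on chromosome 20 on the plus strand. The level of the first was 0.61, 0.53, 0.08 and -0.30 on mock samples 1, 8, 9 and 11. With the common-seed duplexes it was 0.64, 0.59 and 0.59 on set 1 (dsEcad640, miR-302a, miR-372), 0.65 with miR-373, -0.07 with miR-372 sample 10 and -0.59 with miR-520c. The groups overlapped, and both mock and duplex arrays of set 3 lay below those of the other sets. The fitted common-seed difference was -0.07 (95% confidence interval -0.38 to 0.24) for the first probe and -0.07 (-0.34 to 0.21) for the second, with limma adjusted p = 0.828 and 0.824. The array of miR-520c was the lowest for both, at -0.48 and -0.46 against its mock arrays, and the other 5 lay between -0.05 and 0.12. With miR-520f SEC23B was 0.47 and 0.38 below mock sample 8, and the fitted differences were -0.56 and -0.47 (limma adjusted p = 0.427 and 0.472).

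The 4 SEC24 genes, which bind cargo, gave no call in either direction. SEC24D had the largest difference among them. The level of its probe A_23_P159382, on chromosome 4, was -0.44, -0.47, -0.45 and -0.72 on mock samples 1, 8, 9 and 11. It was -0.66, -0.75 and -0.93 with dsEcad640, miR-302a and miR-372 on set 1, -0.68 with miR-373, -0.88 with miR-372 sample 10 and -1.34 with miR-520c. Each of the 6 arrays was below the mock mean of its set, while mock sample 11 lay below dsEcad640 and miR-373, so the groups overlapped. The fitted difference was -0.40 (SE 0.13, 95% confidence interval -0.69 to -0.10), with limma adjusted p = 0.12. Over the 16 alternatives fitted by probe the limma adjusted p ran from 0.0728 to 0.35. The other SEC24D probe, A_24_P926859, cleared background on 0 of 11 arrays and is not described further.

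For SEC24A, probe A_23_P394605 was fitted at 0.31 (95% confidence interval -0.06 to 0.67) and the dimmer A_23_P329593 at 0.06 (-0.25 to 0.37). The first of these was above the mock mean of its set on 5 of the 6 common-seed arrays, by up to 0.76 with miR-520c, and was 0.03 below with miR-373. SEC24B (A_23_P69683) was fitted at -0.02 (-0.28 to 0.24) and SEC24C (A_24_P255338) at -0.04 (-0.40 to 0.32). For SEC24C the sets differed more than the groups. Its level was 0.92 and 0.86 on the mock arrays of sets 1 and 2, and -0.32 and -1.01 on those of set 3.

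SEC31A, the cage protein, had 3 probes that disagreed in direction, and none was called. A_23_P170273 and A_24_P277349, which lie near each other on chromosome 4, were fitted at -0.23 (95% confidence interval -0.52 to 0.06) and -0.10 (-0.29 to 0.09). A_24_P943802, placed by the array design on a separate cDNA at chr4:84033771-84033830, was fitted at 0.27 (-0.08 to 0.63) and was above the mock mean on all 6 arrays, by 0.05 to 0.62. Without miR-520c the first was at -0.12 and A_24_P943802 at 0.18. The second was at -0.05 without mock sample 9, so the sizes depend on single arrays. Leaving out mock sample 1, which takes set 1 out of the comparison, put the second at -0.06.

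The GTPases differed from each other. SAR1B was lower with the common-seed duplexes, and SAR1A was not called. The SAR1B probe, A_23_P92842, lies at chr5:133970245-133970304 on the minus strand of hg18. Its level was 1.65, 1.76, 2.02 and 2.15 on mock samples 1, 8, 9 and 11. With the duplexes it was 1.00 (dsEcad640), 1.32 (miR-302a) and 0.99 (miR-372) on set 1. On the other sets it was 1.25 with miR-373, 1.31 with miR-372 sample 10 and 0.67 with miR-520c. All 6 lay below all 4 mock arrays, and miR-520c was the lowest.

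SAR1B fell by 0.78 on the log2 scale in the fit (SE 0.17, 95% confidence interval -1.18 to -0.39, limma adjusted p = 0.0469), a 1.72-fold lower signal. Against mock of the same set it was lower by 0.33 to 1.41, on 6 of 6 arrays, with means of -0.55, -0.51 and -1.09 within sets 1, 2 and 3. The call was close to the threshold. It held in 7 of the 16 alternatives fitted by probe, with limma adjusted p from 0.0226 to 0.166. With the mean of the probes of a gene, not among these 16, 2 member genes were called, a count in which SEC23A was not left out. Leaving out any 1 of 8 of the 10 arrays ended the call of SAR1B, and so did testing all probes without the filter (limma adjusted p = 0.138). The calls over all probes fell as well, from 1162 to between 24 and 646 in these 8 fits and to 236 without the filter. They were 605 without miR-520c sample 12, where SAR1B kept its call. With 1 array left out, the SAR1B difference stayed between -0.90 and -0.62. Among the 8 arrays, mock sample 1 takes the whole of set 1 out of the comparison. Mock sample 8 or miR-373 sample 7 takes out set 2. Without mock sample 1, which gave the highest adjusted p, the difference was -0.90. With miR-520f, SAR1B was 0.53 below mock sample 8, against 0.51 for miR-373 on the same slide. Its fitted difference from mock was -0.66 (limma adjusted p = 0.476), and from the common-seed duplexes 0.12 (95% confidence interval -0.63 to 0.87, limma adjusted p = 0.986).

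SAR1A had levels of 5.20, 5.20, 5.45 and 5.77 on mock samples 1, 8, 9 and 11 for A_23_P127175. That probe was fitted at 0.10 (95% confidence interval -0.17 to 0.38). The second, A_24_P158421, was above the mock mean of its set on all 6 common-seed arrays, by 0.10 to 0.50, and was fitted at 0.27 (SE 0.09, 0.05 to 0.48, limma adjusted p = 0.147). With miR-520f this probe differed from mock by 0.64 (0.23 to 1.05, limma adjusted p = 0.174), and the first probe by 0.00, so the probes disagree there.

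**Figure D2:**
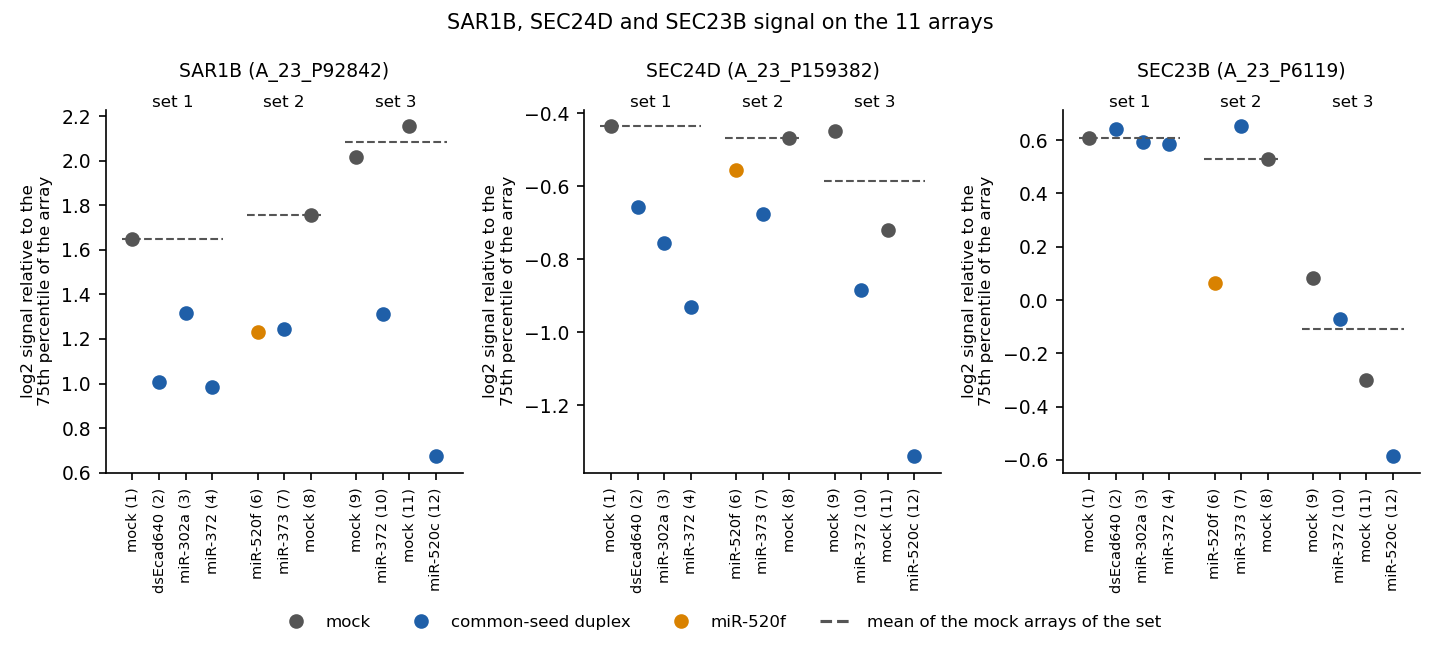
SAR1B, SEC24D and SEC23B (1 probe each) on the 11 arrays, as the log2 signal less the 75th percentile of its array (vertical axis) by set and sample number (horizontal axis), with mock in grey, common-seed duplexes in blue, miR-520f in orange and the mock mean of a set as a dashed line. The SAR1B arrays of the common-seed duplexes (0.67 to 1.32) lie below all mock arrays, those of SEC24D overlap mock sample 11, and those of SEC23B lie on both sides of mock.

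Over the coat without SEC23A, by whose fall the list was chosen, 1 of 13 probes was called lower with the common-seed duplexes, that of SAR1B, and 0 higher. Of all probes tested, 2.09% were called lower and 2.23% higher. At an unadjusted p under 0.05, 3 of these 13 passed, against 21.2% of all probes. The median difference over the 13 probes was -0.04, beside 0.03 over all probes. Below the mock mean of their set on all 6 arrays were 2 of the 13, those of SAR1B and SEC24D, and 2 were above it on all 6, against 11.5% and 16.7% of all probes. For 1 of the 13, SAR1B, all common-seed arrays lay below all mock arrays, as for 3.39% of all probes, while 0 lay above all mock arrays, beside 3.27% of all probes. Without mock sample 1, the only mock array of set 1, that set left the comparison. SAR1B then lost its call, and 24 of all probes were called.

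**Figure D3:**
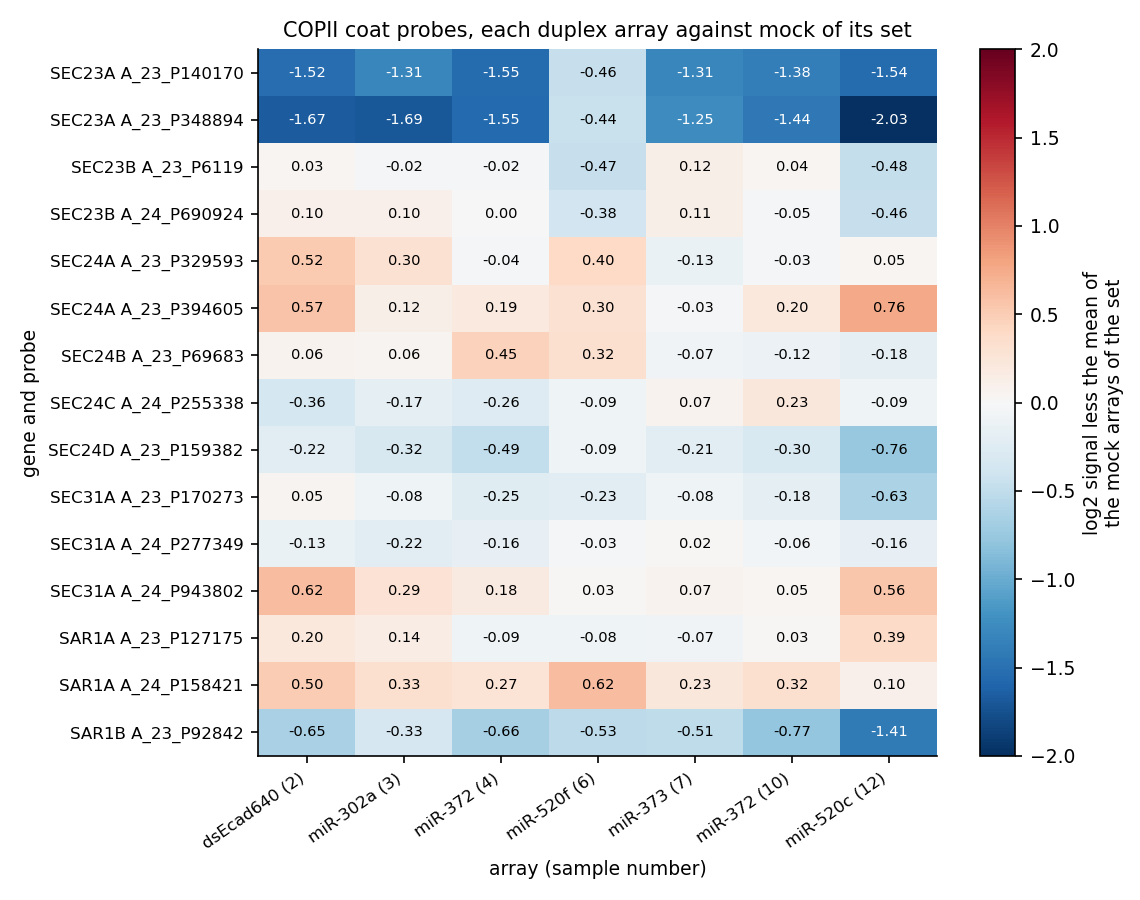
Log2 signal of the 15 coat probes (rows) on each of the 7 duplex arrays (columns) less the mean of the mock arrays of the same set, with blue for lower and red for higher signal and the value in each cell. Both SEC23A rows are at -1.25 or lower on every common-seed array and near -0.45 with miR-520f, SAR1B runs from -1.41 to -0.33, and the other rows lie between -0.76 and 0.76.

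The miR-520c array held the lowest value of the 6 for both SEC23B probes, SEC24B, SEC24D, SEC31A probe A_23_P170273, SAR1A probe A_24_P158421, SAR1B and the second SEC23A probe. It also held the highest for SEC24A probe A_23_P394605 and SAR1A probe A_23_P127175. It is 1 array. Without it, the SAR1B difference was -0.62 (limma adjusted p = 0.0452), that of SEC24A probe A_23_P394605 was 0.18 in place of 0.31, and that of SAR1A probe A_23_P127175 was 0.03 in place of 0.10.

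For miR-520f, 0 of the 13 probes of the other 8 genes were called against mock by limma, where 0.680% of all probes were called. At an unadjusted p under 0.05 the SAR1A probe A_24_P158421 passed, beside 12.5% of all probes. Against the common-seed duplexes 0 of the 13 were called, and 0 had an unadjusted p under 0.05, with 0.0669% and 7.48% over all probes. The intervals for this single array were wide. For SEC23B, for instance, the difference between miR-520f and the common-seed duplexes was -0.49 (95% confidence interval -1.08 to 0.10) with the first probe. Both comparisons share mock arrays with the comparison above.

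**Figure D4:**
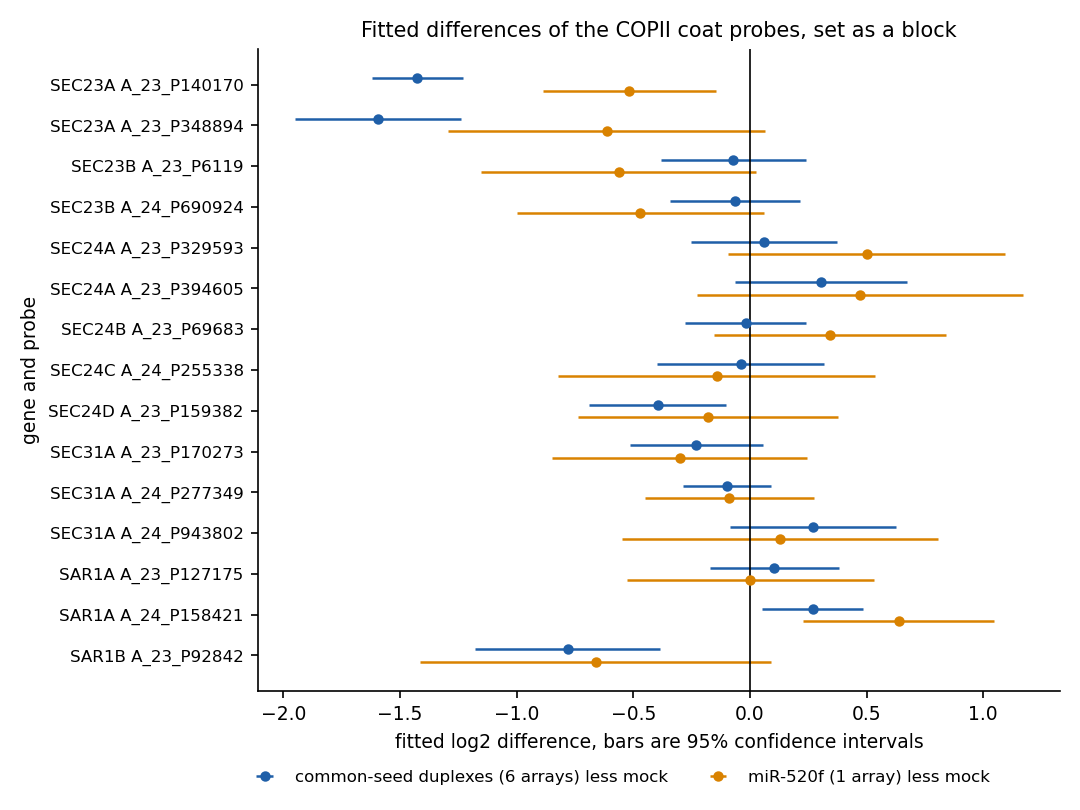
Fitted log2 differences (horizontal axis) of the 15 coat probes (vertical axis) from mock with the set as a block, for the 6 common-seed arrays in blue and the miR-520f array in orange, where bars are 95% confidence intervals. Among common-seed differences, those of SEC23A (-1.43 and -1.59) and SAR1B (-0.78) lie farthest below 0, and the miR-520f intervals are wider than those of the 6 arrays.

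The other genes of the early secretory pathway did not pass the test. In 4 lists, 52 genes had 102 probes, of which 97 passed the filter, and 0 were called with the common-seed duplexes by limma, against 4.32% of all probes. At an unadjusted p under 0.05, 14 of the 97 passed, beside 21.2% of all probes. Their median difference was -0.02, and they ranged from -0.44 to 0.64. Below mock on all 6 arrays were 16 of the 97 and above it 9, where the shares of all probes were 11.5% and 16.7%. With miR-520f, 0 of the 97 were called by limma and 11 had an unadjusted p under 0.05, beside 0.680% and 12.5% of all probes.

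By role, the 18 probes of other exit-site genes, such as SEC13, the partner of SEC31A, and SEC16A, which organises the sites where the coat forms, had a median of 0.06. The 34 probes of cargo receptors, such as LMAN1, which carries clotting factors, and the KDEL receptors, which return resident proteins to the endoplasmic reticulum, had a median of -0.07. The 24 probes of tethers, SNAREs and RAB proteins, which fuse the vesicles with their target, had a median of -0.02. The 21 probes of COPI, the coat of the return route, and its ARF1 machinery had a median of -0.004, and 0 of them had an unadjusted p under 0.05. The lowest adjusted p of these lists was 0.0852, for SURF4, a cargo receptor, at 0.24 above mock in the limma fit.

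In the log2 table that the authors deposited, 2 of these probes were called, which are named here after their values were seen, where 9.41% of all its probes tested were called. They were TMED5 (A_24_P54178), a p24 cargo receptor, at -0.44 (limma adjusted p = 0.0335), and GOLGA2 (A_23_P9426), a Golgi tether, at -0.25 (limma adjusted p = 0.0431). From the scanner files the same probes were at -0.40 and -0.25, with limma adjusted p = 0.105 and 0.0925, and both were below the mock mean of their set on all 6 arrays. The other TMED5 probes were at -0.44 (A_23_P86002) and -0.06 (A_32_P128661), and the other GOLGA2 probe at -0.16 (A_24_P910297). None of these was called.

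**Figure D5:**
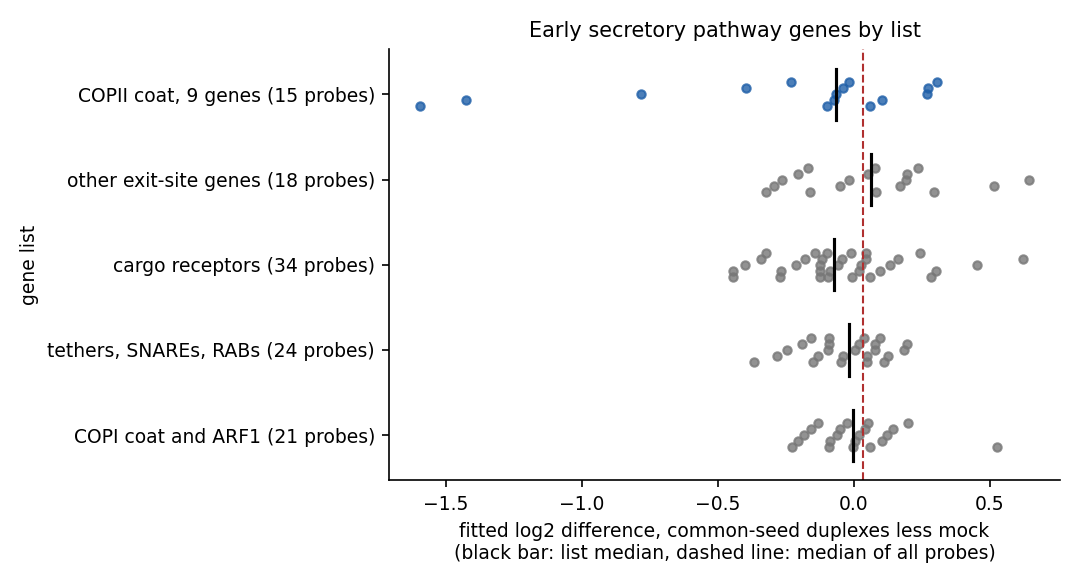
Fitted log2 difference between common-seed duplexes and mock (horizontal axis) for the probes of the coat and of 4 other lists of the early secretory pathway (vertical axis), 1 point per probe, with a black bar at the median of a list and a dashed line at the median of all probes, 0.03. The points of SEC23A and SAR1B lie at -1.59, -1.43 and -0.78, and all other points lie between -0.44 and 0.64.

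The genes whose pattern was most like that of SEC23A were taken by Pearson r over the 11 arrays, after subtracting the mock mean of each set, among 21402 probes well above background on all arrays. They were LIN52 (r = 0.993), a subunit of a complex that controls cell cycle genes, MICA (0.985), a stress-induced ligand of natural killer cells, MTMR4 (0.985), a lipid phosphatase, DRAM (0.983), a lysosomal protein, and SRPX (0.980). Their fitted common-seed differences were -1.31, -1.59, -1.39, -1.94 and -0.75. With miR-520f they were at -0.55, -0.84, -0.40, -0.32 and -0.24 against mock sample 8, where SEC23A was at -0.45. These values share arrays and slides and describe likeness over 11 arrays. The subtraction puts mock samples 1 and 8 at 0 for every probe and makes mock samples 9 and 11 mirror each other. A high r thus largely reflects a fall with the common-seed duplexes, by which SEC23A was chosen, and tests nothing. This also holds for the coat probes that follow. Within the coat, SEC24D (0.85) and SAR1B (0.83) were the most like SEC23A, while both SEC23B probes stood at 0.13 and 0.09, and SEC31A probe A_24_P943802 at -0.71.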

How the data were processed

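Total RNA of 11 PC-3 samples was measured on 1-colour Agilent whole human genome arrays. The authors deposited the output of Agilent Feature Extraction 10.5.1.1, whose processed signal is an intensity with the background subtracted within each array and no scaling between arrays. They also deposited a table of log2 values, whose normalization is not given in the sources used here and which served as an alternative.

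Spots with an outlier mark (52 to 209 of 43376 per array) were left out, the 75th percentile of each array was subtracted from its log2 processed signals, and spots of a probe were averaged. Probes were kept if 6 or more arrays had them well above background and no value was missing, which left 26919, with 199 left out for an outlier mark. The main fit was limma 3.58.1 (R 4.3.3) with the set, which is the slide, as a block. It compared 6 common-seed with 4 mock arrays, or 3 classes over 11 arrays for miR-520f, with Benjamini-Hochberg adjustment over all probes and a threshold of 0.05. The residual degrees of freedom were 6 in the comparison of 10 arrays. Tables and figures were made with Python 3.11.15, numpy 2.4.6, pandas 2.3.3 and matplotlib 3.10.9. The fit was tested on simulated data with independent noise, scaled by the spread of each probe as moderated by limma. It called 69% of 100 probes changed by 1 on the log2 scale and 90% of 100 changed by 2. It also called 10 unchanged probes, and changes smaller than 1 were not simulated. Only 200 probes were changed there, while 1162 were called in the data, so these shares need not hold for the data. Coordinates are those of hg18 in the files, and 0 columns were left unmapped.

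Alternatives were normexp background correction (offset 50), quantile normalization, no filter on dim probes or one on all 11 arrays, no set block, the deposited table, the mean of the probes of a gene, and each mock or common-seed array left out. Values within each set were added after seeing the data. The named genes are all members, called probes of the other pathway lists, and the 5 genes most like SEC23A. SURF4, TMED5 and GOLGA2 were named after their values were seen, and SEC13, SEC16A, LMAN1 and ARF1 as examples of their lists. Members and lists were chosen with earlier results of these data known. The coding and untranslated positions of probes, target sites, protein data and qRT-PCR were not analysed here. One cell marker is not reported here.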

Additional observations from a re-analysis of the deposited data

Results flagged for a closer look

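On the second SEC23A probe, A_23_P348894, mock sample 9 was the highest of the 4 mock arrays at -0.68, and its gap to the nearest was 0.941 of their range. Without this array the fitted common-seed change of SEC23A, as the mean of its probes, was -1.46. On SEC24D (A_23_P159382) mock sample 11 was the lowest of the 4 mock arrays at -0.72, with a gap of 0.892 of the range. About 1 in 20 groups passes this limit by chance.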

How the results depend on the processing

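The change of SEC23A, as the mean of its probes, was -1.51, and it was -1.29 after normexp background correction and -1.28 within set 2, where 1 mock array stands alone. Leaving out 1 array at a time, it ran from -1.58 to -1.43. Of the 13 member probes other than those of SEC23A, 1 was called with the common-seed duplexes, that of SAR1B. None of the others was called in any alternative fitted by probe. With the 2 probes of SEC23A counted, the number was 3, and 1 to 3 with 1 array left out. SEC23A was chosen by its fall in this comparison, so its part of this count tests nothing. The lowest count, 1, was without mock sample 1, which takes set 1 out of the comparison. Of all probes, 24 were then called in place of 1162. The count of all probes called was also low without the set block (394) and with no filter (236), and was 2098 with a filter on all 11 arrays. Among other early secretory probes 2 were called in the values as deposited, in place of 0, while the share of all probes called rose from 4.32% to 9.41%. The count of member probes below mock on all 6 arrays was 4, both SEC23A probes included, and stayed within 1.5 times of 4 under every alternative. With an array left out, this count covers only the common-seed arrays that remain in a set with a mock array. The highest count, 6, was without mock sample 1, when set 1 did not enter it. By limma, 0 member probes were called for miR-520f under each alternative. Over all probes, the calls for miR-520f against mock were 183, and ran from 0 without mock sample 1 and 1 with no filter to 789 without miR-372 sample 4. Counts at unadjusted p and the miR-520f counts of the other lists were not run under the alternatives. Small changes turned sign. Without the set block the SEC23B probes stood at 0.0722 and 0.0167, SEC24C at 0.174 and SEC24A probe A_23_P329593 at -0.0567, and this last probe was at -0.0908 after normexp correction and -0.207 after quantile normalization. With 1 array left out, the SEC23B probes ran from -0.135 to 0.0445 and from -0.131 to 0.0387, SEC24A probe A_23_P329593 from -0.0401 to 0.121, SEC24B from -0.125 to 0.0150 and SEC24C from -0.178 to 0.0725. SAR1B kept its direction in all settings and lost its call in 9 of the 16 alternatives fitted by probe, and the cause was not tested. With the set as a block, leaving out mock sample 1 takes set 1 out of the comparison of common-seed with mock arrays. Leaving out mock sample 8 or miR-373 sample 7 takes set 2 out. The median of all probes moved from 0.03 to 0.12 with no filter. Arrays are compared within slides through the set block, and the sample numbers of the labels, which are not shared between groups, pair no arrays.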
